A study of Mus musculus with 30 samples.

Results

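The HoxB cluster on mouse chromosome 11 holds Hoxb13, Hoxb9, Hoxb8, Hoxb7, Hoxb6, Hoxb5, Hoxb4, Hoxb3, Hoxb2 and Hoxb1. Its CTCF and RAD21 peaks were taken from every list as the entries that overlap the mm10 span from Hoxb13 to Hoxb1 with 20 kb added on both sides, chr11:96174316-96388254 (213.9 kb). This gave 412 of the 1352462 deposited entries. Of these, 253 were CTCF entries, 200 from mutant and 53 from WT libraries, and 159 were RAD21 entries, 119 from mutant and 40 from WT libraries.

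The libraries were made by ChIPmentation, chromatin immunoprecipitation in which Tn5 transposase inserts the sequencing adapters while the chromatin is still on the beads, from embryonic trunks of the B6CBAF1 strain at E10.5. The mutant embryos were homozygous for 1 of 6 alleles, in which CTCF binding sites (CBS) of the HoxD cluster on chromosome 2 are mutated, and the WT embryos were their littermates from crosses between heterozygous parents. The allele Del(CBS1) was represented by 3 libraries of each antibody. For Del(CBS1-2) there were 1 CTCF and 2 RAD21 libraries. Each of the longer alleles, named Del(CBS1-3), then Del(CBS1-4) and lastly Del(CBS1-5), had 2 libraries per antibody, while Del(CBS2) had a single library per antibody. The WT group comprised 3 CTCF and 4 RAD21 libraries. A trunk holds many cell types, so a weaker peak in bulk chromatin cannot be told apart from a peak carried by fewer cells. The mutated sites lie in another cluster, so comparing mutant with WT libraries here asks whether CTCF and RAD21 differ at a related cluster on another chromosome.

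Hox genes encode homeodomain transcription factors that set the identity of segments along the head-to-tail axis. Within a cluster, genes near the Hoxb1 end are generally expressed earlier and farther forward, and genes near the Hoxb13 end later and farther back. CTCF is a zinc-finger protein that binds DNA and can halt the cohesin ring as the ring extrudes chromatin loops, and RAD21 is a subunit of that ring. A RAD21 peak on a CTCF site is therefore read as a place where cohesin accumulates.

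The lists held 40011 to 88323 CTCF entries and 16676 to 48102 RAD21 entries, and HoxB entries made up 0.0192% to 0.045% of a CTCF list and 0.0215% to 0.0452% of a RAD21 list. Read depth was unknown, so absence of a peak means only that none was called, and no interval was computed. CTCF libraries gave 13 to 21 HoxB entries in mutants (median 18) and 14, 15 and 24 in WT. RAD21 libraries gave 6 to 16 in mutants (median 9.5) and 6, 18, 7 and 9 in WT. Both groups overlapped for both antibodies. In 5 mutant CTCF libraries, Del(CBS1) replicates 2 and 3, Del(CBS1-3) replicate 2 and Del(CBS1-4) replicates 1 and 2, the median fold enrichment over all 32093 CTCF sites found in every library was low, at 6.26 to 7.41. In the other 6 mutant libraries it was 9.61 to 13.09, and in WT it was 12.4, 9.19 and 11.04. CTCF results at HoxB are given without these 5 libraries only where stated. For RAD21 the median over 12987 sites was also low in Del(CBS1) replicate 1 (7.81), Del(CBS1-3) replicate 2 (7.84) and Del(CBS1-5) replicate 2 (7.25). It was 8.79 to 11.92 in the other mutant libraries and 8.78, 9.26, 8.85 and 11.44 in WT. RAD21 results were not computed without these RAD21 libraries as a set.

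Summits of all libraries of an antibody were linked into sites where they lay within 150 bp of each other, and a library had a site where 1 of its peaks covered the median summit. HoxB held 37 CTCF sites. Of these, 10 were found in all 14 CTCF libraries, 10 in 7 to 12 libraries and 17 in 1 to 6 libraries, 10 of the last class in 1 library each. RAD21 had 22 sites, with 5 in all 16 RAD21 libraries, 3 in 10 to 13 and 14 in 1 to 6. Positions below are median summits on chromosome 11 in mm10, counted from 1, and the gene at a site is the RefSeq gene whose span contains it or lies nearest. Spans include introns, and exons were not analysed here.

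The 10 CTCF sites found in every library are called A to J from the Hoxb13 end to the Hoxb1 end. Site A (96198649) lay 4.3 kb from the Hoxb13 span start, 214 bp from the lncRNA gene Gm30134. Sites B (96224018), C (96235064) and D (96240432) lay in the gene-poor stretch between Hoxb13 and Hoxb9, and D was 8166 bp from the pseudogene Gm11539. Site E (96261753) lay in the lncRNA gene Gm53. Site F (96278933) lay between Hoxb9 and Hoxb8, 468 bp from the Hoxb8 span. Site G (96294730) lay in the spans of Hoxb6 and the antisense gene Hoxb5os, and site H (96303248) in Hoxb5os, 264 bp from Hoxb5. Site I (96311771) and site J (96346186) lay in the long Hoxb3 span, J also in Hoxb3os. Neighbouring sites were 5.4 kb (C to D) to 34.4 kb (I to J) apart. The gap between I and J contains Hoxb4.

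**Figure D1:**
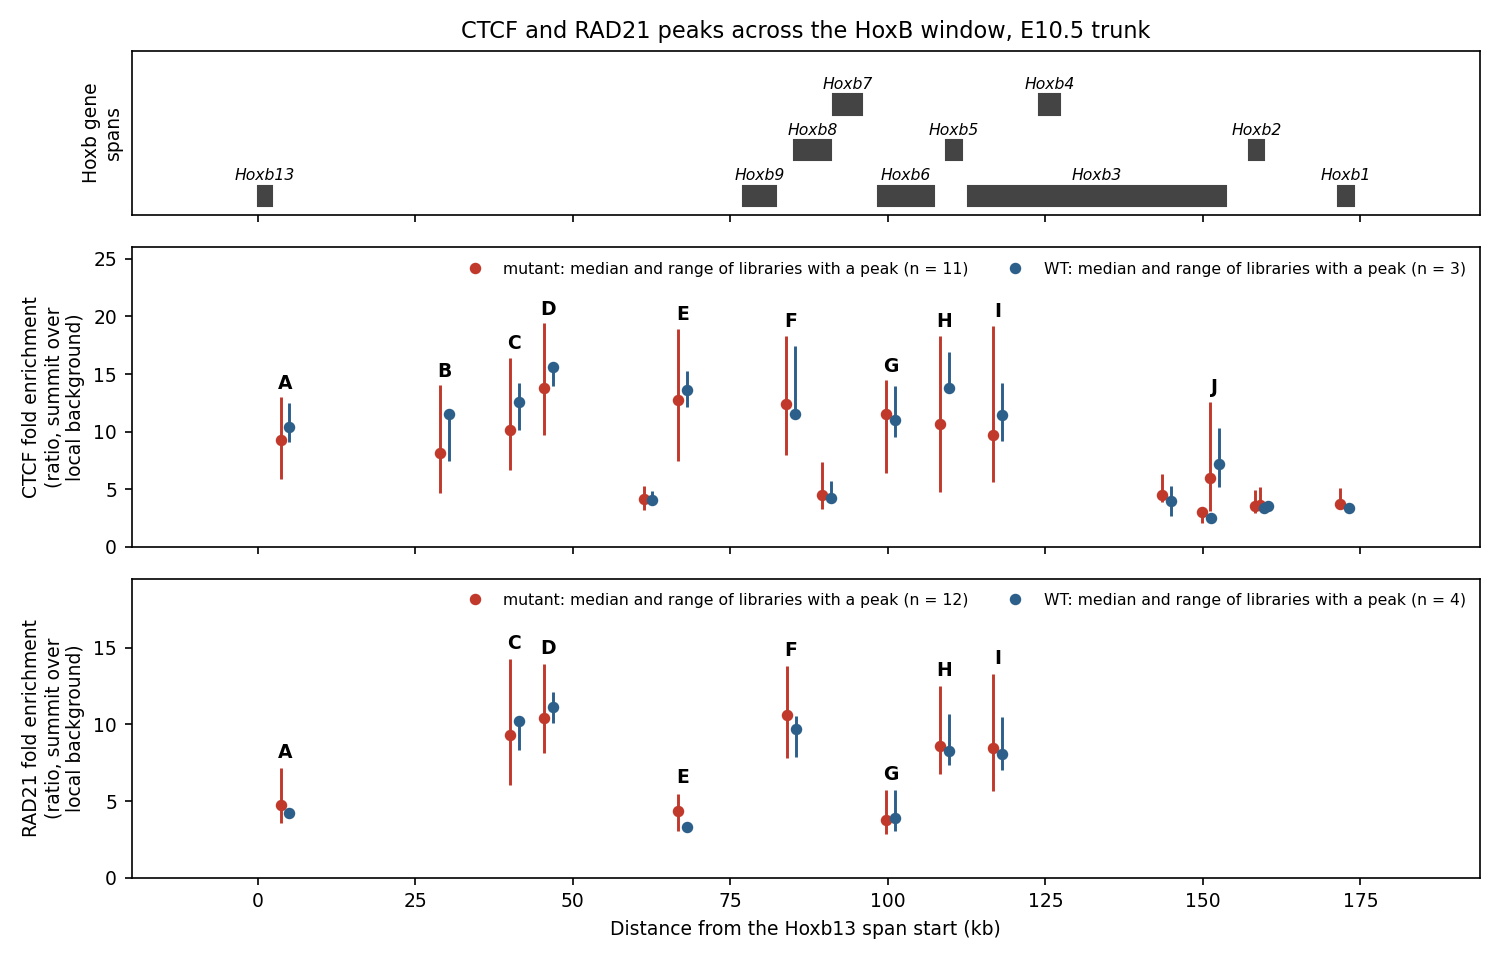
Map of the HoxB window, with distance from the Hoxb13 span start in kb on the x axis, Hoxb gene spans at the top, and fold enrichment (a ratio) of CTCF and of RAD21 on the y axes. Points are medians and lines the range over libraries with a peak, mutant (red, 11 CTCF and 12 RAD21 libraries) left of WT (blue, 3 and 4 libraries), for sites with a summit of their own in at least 7 CTCF or 8 RAD21 libraries. Letters mark sites A to J, with J the lowest of the 10 in CTCF, while RAD21 is tall at C, D, F, H and I alone.

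Both miRNA genes of the cluster lie in gaps between CTCF sites. The hairpin of miR-196a-1, whose 5p arm targets Hox mRNAs including Hoxb8, lies between sites E and F, and that of miR-10a, next to Hoxb4, lies between sites I and J. The 5p arms are printed as landmarks of these gaps, which hold CTCF or RAD21 sites found in part of the libraries, from RefSeq on GRCm38.p6, plus strand, 5′ to 3′ with the seed (bases 2 to 8) in capitals.
mmu-miR-196a-5p, chr11:96265187-96265208: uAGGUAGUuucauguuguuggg
mmu-miR-10a-5p, chr11:96317186-96317208: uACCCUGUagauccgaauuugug
The seeds differ. Neither hairpin was covered by a CTCF or RAD21 peak, in 0 of 14 and 0 of 16 libraries.

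Strength was compared as a percentile within each list, the rank of a site's fold enrichment among the 32093 CTCF or 12987 RAD21 sites common to all libraries of the antibody. The fold enrichment is the authors' value for each peak, the summit over the local background of that library. A percentile of 100 is the strongest site and 0 stands for no peak. Site D was the strongest CTCF site of HoxB, at 87.3 ± 6.25 (SD, n = 14 libraries), and it ranked first among the 10 in 8 of 14 libraries. Its fold enrichment was 9.72 at the lowest, 13.79 at the median and 19.4 at the highest of 11 mutant libraries, against 15.58, 13.97 and 16.04 in WT. As a percentile it was 78.2, 88.2 and 98.0 (lowest, median and highest) in mutants and 77.7, 92.2 and 90.9 in WT, so the WT values lay almost wholly inside the mutant range.

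Site F, between Hoxb9 and Hoxb8, genes that pattern the thoracic trunk, came next at 77.4 ± 10.84, and E, in Gm53, after it at 75.8 ± 11.14 (SD, n = 14 each). D ranked above F in 10 of 14 libraries and F above E in 8, so the order of F and E was not separated by the spread between libraries. H, beside Hoxb5, averaged 66.2 ± 22.67 and had the widest spread of the 10. In the 5 mutant libraries of low median fold it was at 25.4 to 55.0. In WT alone H averaged 84.3, above E at 76.5 and F at 71.7. The order over 14 libraries was not computed again without those 5. C averaged 64.9 ± 12.75 and G, in Hoxb6, 61.8 ± 9.84, and H was above C in 8 libraries and C above G in 9. A, nearest to Hoxb13, averaged 51.6 ± 15.39, I 49.7 ± 18.48 and B 46.7 ± 17.32. A ranked above I in 7 of 14 libraries and I above B in 7, so these 3 sites had no settled order. J, at the Hoxb1 end of the Hoxb3 span, was the weakest at 18.6 ± 15.15, and B ranked above it in 13 of 14 libraries. No site of the 10 lay between J and Hoxb1, 19560 bp away.

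The other 10 CTCF sites, found in 7 to 12 libraries, were weak or shared an interval with a stronger one. Positions 96198165, 96199039 and 96303592 had a summit of their own in 1, 5 and 1 libraries. The folds of those peaks were 2.71 in WT replicate 3 at 96198165, 2.20 to 3.09 in 4 mutant libraries and 3.81 in WT replicate 1 at 96199039, and 2.39 in Del(CBS1) replicate 3 at 96303592. Elsewhere they were found through the wide intervals of sites A and H, and the value there is that of A or H. The site at 96256248 in Gm53 was found in 8 of 11 mutant and 3 of 3 WT libraries, with folds of 3.17 to 5.24 in mutants and 4.02, 4.06 and 4.84 in WT. A site at 96284533 in the Hoxb8 span was found in the same numbers, at 3.26 to 7.33 in mutants and 3.92, 5.66 and 4.21 in WT. Both were missing from the same 3 libraries, Del(CBS1) replicates 2 and 3 and Del(CBS1-3) replicate 2, which are among the 5 with a low median fold, so that without those 5 both sites were found in 6 of 6 mutant libraries. The site at 96338518 in Hoxb3 was found in 5 of 11 mutant and 2 of 3 WT libraries, and that at 96366801 in Hoxb1, a gene of hindbrain identity, likewise in 5 and 2, with folds of 3.53 to 5.08 in mutants and 3.42 and 3.30 in WT. All 5 libraries with a low median fold lacked both of these, and without them each was found in 5 of 6 mutant libraries, against 2 of 3 in WT.

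Around Hoxb2 and the start of Hoxb3os 3 sites were found more often among mutant libraries, and this depended in part on the libraries with a low median fold. The site at 96344872 in Hoxb3 and Hoxb3os was found in 7 of 11 mutant libraries and 1 of 3 WT libraries. Site 96353288, in Hoxb2 and Hoxb3os, was found in 8 of 11 and 1 of 3, and site 96354007, in Hoxb2, in 6 of 11 and 1 of 3. Their folds were low, 2.03 to 3.38 and 2.46, 2.89 to 4.88 and 3.34, and 3.34 to 5.18 and 3.54, mutant before WT in each pair. All 5 mutant libraries with a low median fold had peaks at all 3 of these sites, as did Del(CBS1-5) replicate 1 and WT replicate 3. Without the 5 libraries the sites at 96344872, 96353288 and 96354007 were found in 2 of 6, 3 of 6 and 1 of 6 mutant libraries, against 1 of 3 in WT at each. At 96353288 the mutant share thus stayed the higher, with only 3 WT libraries to compare. Leaving out the 5 libraries was chosen after the data were seen.

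The Hoxb3os promoter lies on the minus strand within the Hoxb2 span. A CTCF peak overlapped it in 9 of 11 mutant and 1 of 3 WT libraries, and a RAD21 peak in 8 of 12 and 2 of 4. The CTCF count was not taken without the 5 libraries of low median fold. This promoter is shown because it was the only one of the 8 matched promoter windows that a peak of either antibody reached. RefSeq promoter windows run from 250 bases before to 50 after a start, and those matched belong to 6 genes, Gm30134, Gm51876, Hoxb8, Hoxb4, Hoxb3os and Hoxb1. The sequence is from RefSeq on GRCm38.p6, chr11:96353345-96353644, minus strand, 5′ to 3′ with each CG in capitals.
Hoxb3os promoter: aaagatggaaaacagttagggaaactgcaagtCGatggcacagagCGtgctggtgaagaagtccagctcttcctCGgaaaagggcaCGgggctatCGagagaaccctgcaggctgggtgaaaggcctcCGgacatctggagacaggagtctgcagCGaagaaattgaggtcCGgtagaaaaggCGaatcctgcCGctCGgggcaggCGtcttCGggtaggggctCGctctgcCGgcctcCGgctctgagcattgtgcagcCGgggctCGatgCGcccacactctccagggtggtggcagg
It holds 19 CG and 60.7% G or C, and 28.1% of all 32851 mouse promoter windows hold as many CG or more. The letters CCANNAGNNGGC, a core of the CTCF motif searched on both strands, were not in this window, nor in the windows of Hoxb8, Hoxb4 and Hoxb1. They occur in 797 of 32851 promoter windows (2.43%).

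By gene, peaks were unevenly placed. The counts cover all libraries and were not taken without the 5 CTCF libraries of low median fold. Hoxb13, the most posterior gene, and Hoxb7 had no CTCF or RAD21 peak over their spans in any library. Hoxb9 had no CTCF peak and a RAD21 peak in 0 of 12 mutant and 1 of 4 WT libraries. Hoxb8 had CTCF peaks in 9 of 11 mutant and 3 of 3 WT libraries and no RAD21 peak. Hoxb6 had CTCF in all 14 libraries and RAD21 in 9 of 12 mutant and 3 of 4 WT libraries, and Hoxb5 CTCF in 10 of 11 and 3 of 3 and RAD21 in 10 of 12 and 3 of 4. Hoxb4, which lies in the Hoxb3 span, had CTCF in 1 of 11 mutant and 0 of 3 WT libraries and RAD21 in 1 mutant and 1 WT library. Hoxb3 had both proteins in all libraries, through site I for both and site J for CTCF. Hoxb2, which acts in the hindbrain, had CTCF in 9 mutant and 2 WT libraries and RAD21 in 9 and 2. Hoxb1 had CTCF in 5 mutant and 2 WT libraries and RAD21 in 1 and 0. Of the 17 CTCF sites found in 1 to 6 libraries, 8 fell in the Hoxb3 span.

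RAD21 was found in all 16 libraries at 5 sites, which coincide with CTCF sites C, D, F, H and I. Their median RAD21 summits, at 96235052, 96240436, 96278969, 96303255 and 96311785, lay -12, 4, 36, 7 and 14 bp from the CTCF summits. The 3 RAD21 sites found in 10 to 13 libraries lay at A (96198655, 13 libraries), E (96261716, 10) and G (96294718, 12). All 8 had a CTCF peak within 150 bp in 14 of 14 CTCF libraries. RAD21 was strongest at D, with a percentile of 65.9 ± 12.11 (SD, n = 16), and D was the first of the 5 in 10 of 16 libraries. Site F followed at 59.3 ± 16.74, C at 51.1 ± 16.88, H at 41.2 ± 13.16 and I at 40.8 ± 14.44. D was above F in 11 of 16 libraries, F above C in 9 and H above I in 10, so only part of this order held from library to library.

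At D the RAD21 fold enrichment was 8.12 at the lowest, 10.45 at the median and 13.94 at the highest of 12 mutant libraries, against 12.15, 10.93, 10.07 and 11.39 in WT. At F, beside Hoxb8, it was 7.80, 10.59 and 13.83 in mutants and 9.72, 9.71, 7.91 and 10.57 in WT. Both sites overlapped between groups. RAD21 at A, E and G was weak wherever it was found, with folds of 3.61 to 7.14, 3.05 to 5.49 and 2.87 to 5.75 in mutants. In WT these were 4.35, 3.87 and 4.21 at A, 2.97 and 3.63 at E, and 3.90, 3.06 and 5.74 at G, in the libraries with a peak. Of the RAD21 libraries of low median fold, Del(CBS1-3) replicate 2 and Del(CBS1-5) replicate 2 lacked A and G. Del(CBS1) replicate 1 lacked E and G, and Del(CBS1-5) replicate 2 also lacked E. WT replicate 1 lacked A and E, WT replicate 3 lacked G and WT replicate 4 lacked E.

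D and H, the strongest CTCF sites in WT at 86.9 and 84.3, had RAD21 in all 16 libraries. J, the weakest at 21.6, had it in 4. RAD21 occupancy did not follow CTCF strength at every HoxB site. Site B, at a mean CTCF percentile of 43.6 in WT, had no RAD21 peak within 150 bp in any library, 0 of 12 mutant and 0 of 4 WT. No RAD21 site of any class lay between A and C. Among 3409 CTCF sites of like strength (within 5 percentile points in WT), the median site had RAD21 in 14 of 16 libraries and 224 (6.57%) had none. Site E stood at a WT percentile of 76.5, above I, C and F, yet had RAD21 in 8 of 12 mutant and 2 of 4 WT libraries, with low folds. Of 3375 sites as strong as E, 260 (7.7%) had RAD21 in as few libraries or fewer, and the median site had it in 16. Site I, at 57.3, had RAD21 in all 16, as did 42.8% of sites of its strength. Site J had RAD21 in 3 of 12 mutant and 1 of 4 WT libraries, which 35.0% of like sites matched or fell short of.

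**Figure D2:**
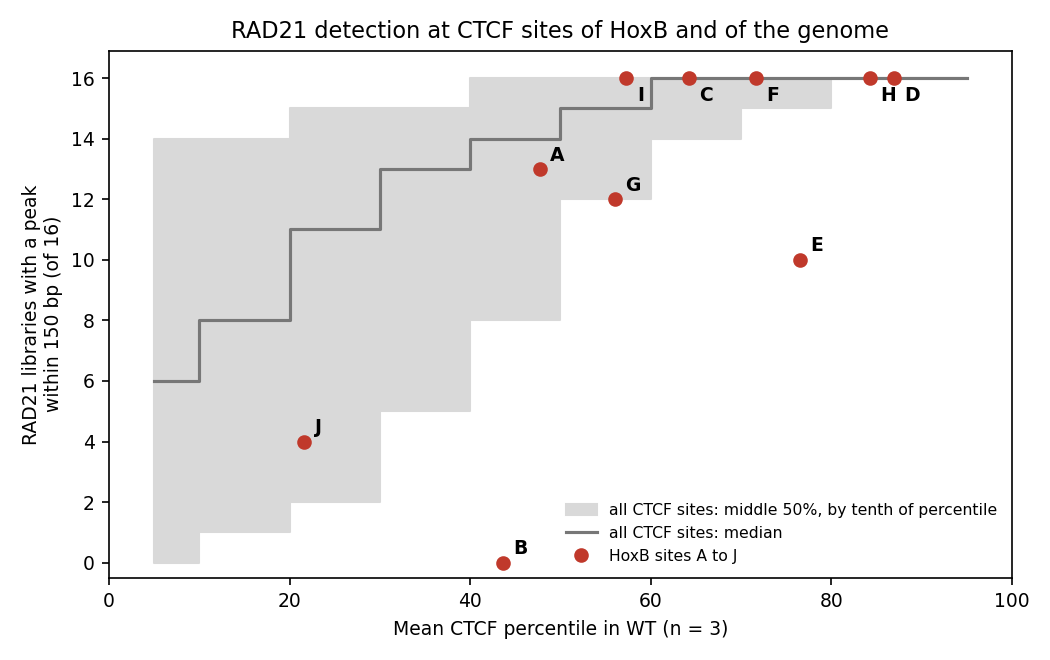
RAD21 libraries with a peak within 150 bp (y axis, of 16) against the mean CTCF percentile in WT (x axis, n = 3 libraries) for sites A to J (red). The grey line and band give the median and the middle 50% over all 32093 CTCF sites found in every library, in steps of 10 percentile points, and sites B (0 libraries at 43.6) and E (10 at 76.5) lie below the band.

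In all, 5 of the 10 CTCF sites (50.0%) had RAD21 in every WT library, against 61.1% of all CTCF sites found in every library. The same 5 had RAD21 in all 16 libraries, against 41.6%, and 1 of 10 had it in none, against 8.11%. With 10 sites these shares are near the genome's. RAD21 in every WT library was found at 6 of 8 such CTCF sites in the HoxA window, 4 of 4 in HoxC and 5 of 6 in HoxD. These windows were built in the same way, and the difference between clusters was not tested. HoxB had 4.67 CTCF sites found in every library per 100 kb, against 3.94 in HoxA, 2.57 in HoxC and 3.94 in HoxD, and 2.34 such RAD21 sites per 100 kb, against 2.46, 1.28 and 1.31. A site had to be found in every library, mutants included, so mutated HoxD sites may be missing from the HoxD counts and shares. The median CTCF percentile of the HoxB sites was 62.3 in mutants and 60.7 in WT. In the HoxD window, which carries the mutations, it was 23.3 in mutants and 54.0 in WT over the 6 sites still found in every library.

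**Figure D3:**
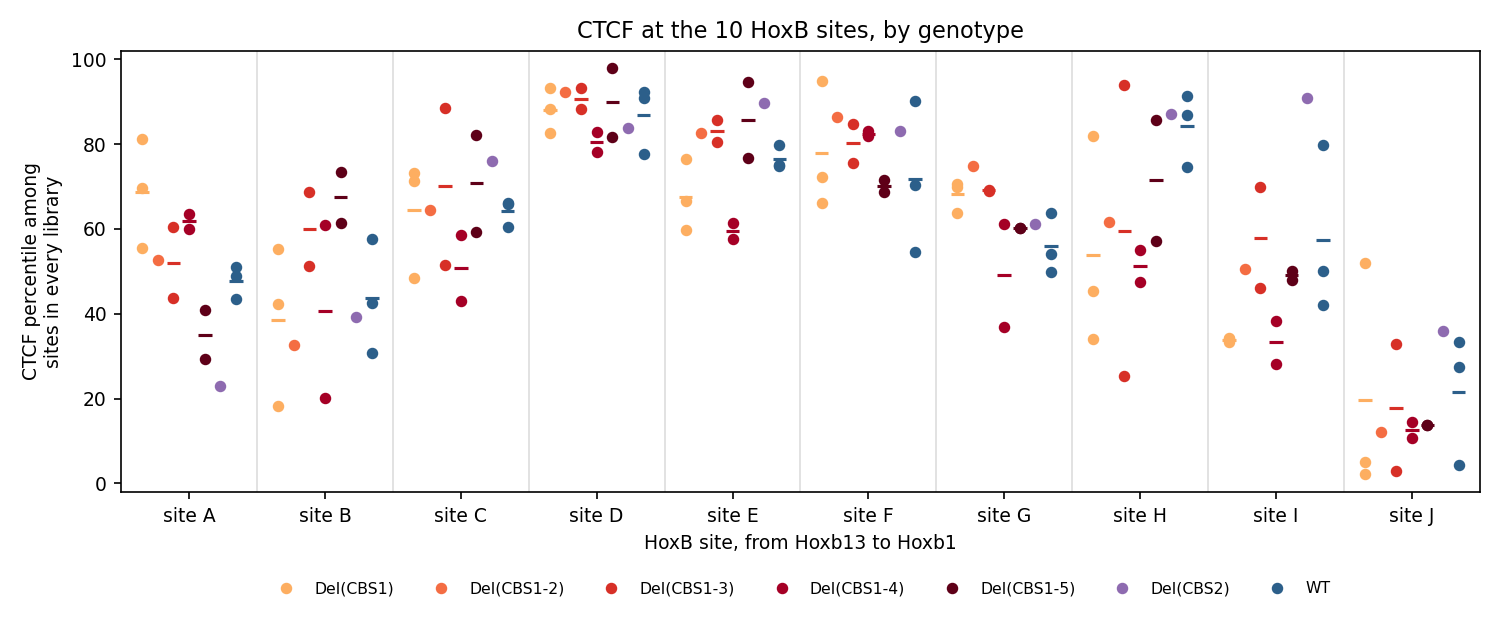
CTCF percentile (y axis) in each of 14 libraries at sites A to J (x axis), coloured by genotype with the 6 mutant alleles left of WT. Bars are means of genotypes with more than 1 library. D is high in every library (77.7 to 98.0) and J low in most, and at H several mutant libraries lie under the WT values of 86.9, 91.2 and 74.7.

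Whether HoxB sites changed rank with the HoxD alleles was tested with limma on normal scores (the rank within a library placed on a standard normal scale), fitted over all sites found in every library and adjusted over all of them by Benjamini-Hochberg. Of the 10 HoxB CTCF sites, 0 were called in all mutants against WT (0% of 32093 sites called), 0 in Del(CBS1-5) against WT (0.0156% called), 0 in Del(CBS1) against WT (0% called) and 0 on the number of mutated sites (0.00312% called). Of the 5 RAD21 sites, 0 were called in all mutants against WT (0% of 12987 called), 0 in Del(CBS1-5) (0.0462% called), 0 in Del(CBS1) (0.0077% called) and 0 on the number of mutated sites (0% called). Genome-wide, 545, 512, 1672 and 807 CTCF sites and 359, 1244, 664 and 676 RAD21 sites had an unadjusted limma p under 0.05, in that order of comparisons. At HoxB 2 CTCF sites and 1 RAD21 site did, all in Del(CBS1). The values below are therefore given as measurements, and a p that misses the threshold does not show that a site kept its strength.

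With all mutants against WT, CTCF changes at HoxB ran from -0.68 to 0.20 normal-score units, 7 of 10 positive. The largest was at H, beside Hoxb5, a gene that acts in forelimb positioning and the cervical trunk. Its CTCF percentile was 25.4 at the lowest, 57.2 at the median and 93.8 at the highest of the mutant libraries, against 86.9, 91.2 and 74.7 in WT. A total of 7 of 11 mutant libraries lay below all 3 WT libraries and 1 above them. The change was -0.68 ± 0.37 (SE; limma adjusted p = 1). The 5 mutant libraries with a low median fold had H at 33.9, 45.4, 25.4, 55.0 and 47.5, and the other 6 at 82.0, 61.6, 93.8, 57.2, 85.8 and 87.2. Without those 5 libraries the change at H was -0.19 ± 0.29 (limma adjusted p = 1). Leaving them out was chosen after the data were seen.

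Site I, in Hoxb3, changed by -0.25 ± 0.31 over all mutants and by 0.02 ± 0.34 without the same libraries (SE; limma adjusted p = 1 in both). Its CTCF percentile was 28.1, 46.02 and 90.9 (lowest, median and highest) in mutants and 42.0, 50.0 and 79.9 in WT. J changed by -0.17 ± 0.36, and by 0.23 ± 0.32 without them. The other 7 sites changed by 0.03 to 0.20, and of these A took the other sign, -0.12 ± 0.23, without the 5 libraries. At F, where the largest positive change of 0.20 ± 0.25 was found, the percentile was 66.2, 81.8 and 95.0 in mutants and 90.2, 70.2 and 54.6 in WT, so the 3 WT libraries spanned most of the mutant range.

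Del(CBS1), with 3 libraries per antibody, gave the 3 HoxB values with an unadjusted p under 0.05. At A, near Hoxb13, the CTCF percentile was 55.4, 81.1 and 69.7 in Del(CBS1) and 51.0, 48.8 and 43.4 in WT, with no overlap. The change was 0.57 ± 0.26 (SE; limma adjusted p = 0.9053). At I it was 34.0, 33.3 and 34.4 in Del(CBS1) and 42.0, 50.0 and 79.9 in WT, again without overlap, for a change of -0.63 ± 0.28 (limma adjusted p = 0.9053). Del(CBS1) replicates 2 and 3 are among the libraries with a low median fold. With these left out, 1 Del(CBS1) library remained, assumed to vary like the rest, and the changes were 0.19 ± 0.34 at A and -0.63 ± 0.40 at I (SE; limma adjusted p = 1 in both). The unadjusted p was then under 0.05 at 2 other sites, F and J, which are given next. RAD21 at F was at 86.1, 80.7 and 71.4 in Del(CBS1) and at 61.1, 56.2, 37 and 40.65 in WT. All 3 mutant libraries lay above all 4 WT libraries, and the change was 0.87 ± 0.29 (limma adjusted p = 0.811). Del(CBS1) replicate 1 is among the RAD21 libraries of low median fold. CTCF at F changed by 0.24 ± 0.33 in the same allele, with Del(CBS1) at 95.0, 66.2 and 72.2, and by 0.99 ± 0.42 without the 5 libraries (limma adjusted p = 1), where the 1 library left is that at 95.0. CTCF at J changed by -0.28 ± 0.52 with all libraries (limma adjusted p = 0.9591) and by 0.97 ± 0.45 without the 5 (limma adjusted p = 1). The Del(CBS1) and WT libraries did not overlap at 2 of 10 HoxB CTCF sites, against 9.62% of all CTCF sites, and at 1 of 5 RAD21 sites, against 5.61% of all RAD21 sites.

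**Figure D4:**
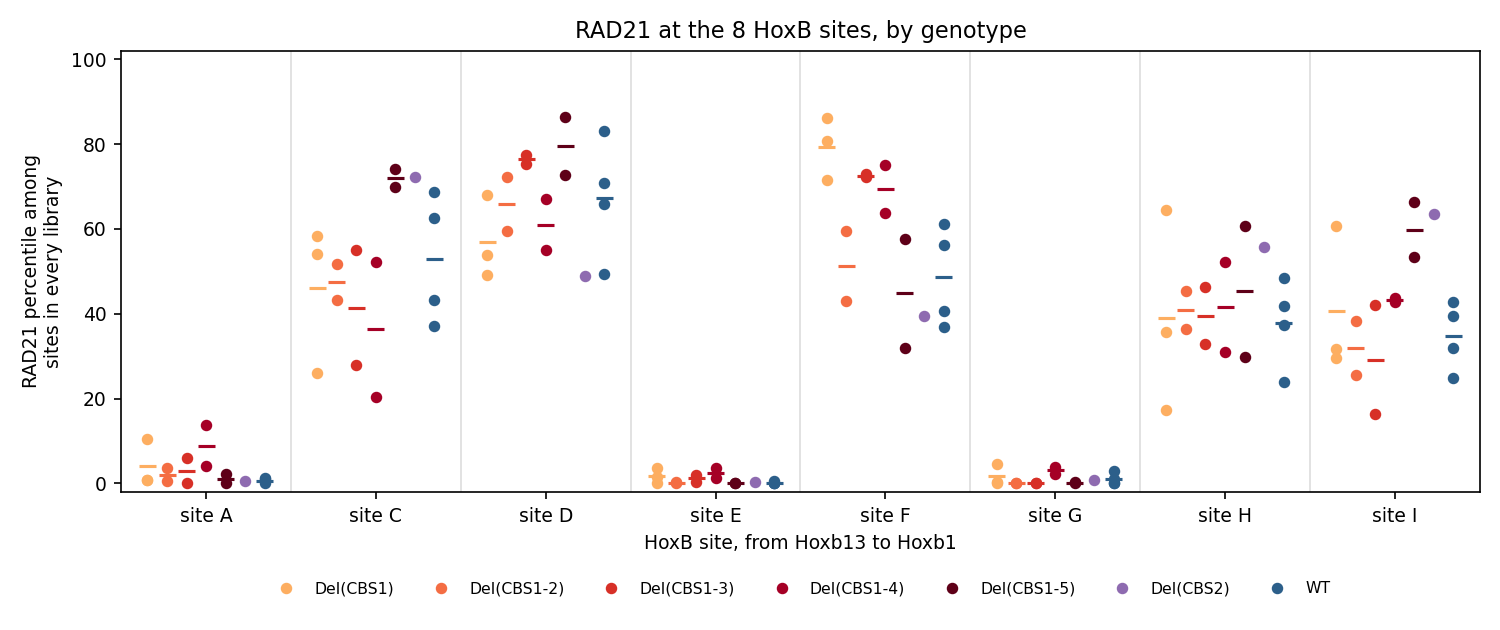
RAD21 percentile (y axis) in each of 16 libraries at the 8 sites found in at least 8 RAD21 libraries (x axis), coloured by genotype with the 6 mutant alleles left of WT; bars are means of genotypes with more than 1 library. Del(CBS1) lies above WT at F, while A, E and G stay at or under 13.8 in every library.

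Del(CBS1-5), the allele with the most mutated sites, showed no HoxB value with an unadjusted p under 0.05 when all libraries were fitted. Its CTCF changes ran from -0.42 to 0.63 and its RAD21 changes from -0.10 to 0.65. The largest CTCF change was at B, where the percentile was 61.4 and 73.5 in Del(CBS1-5) and 42.5, 30.8 and 57.7 in WT (0.63 ± 0.36, limma adjusted p = 1). Without the 5 libraries of low median fold it was 0.63 ± 0.29, with an unadjusted p under 0.05 and a limma adjusted p of 1. The largest RAD21 change was at I, in Hoxb3, at 66.4 and 53.3 in Del(CBS1-5) and 42.9, 32.0, 24.9 and 39.5 in WT (0.65 ± 0.35, limma adjusted p = 0.5451). Both were among the sites at which Del(CBS1-5) and WT did not overlap, 2 of 10 in CTCF (A and B, against 15% of all CTCF sites) and 2 of 5 in RAD21 (C and I, against 16.8% of all RAD21 sites). Genome-wide the Del(CBS1-5) comparison also had the most RAD21 sites with a small unadjusted p, 1244 of 12987. Of its 2 RAD21 libraries, replicate 2 had a low median fold (7.25).

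**Figure D5:**
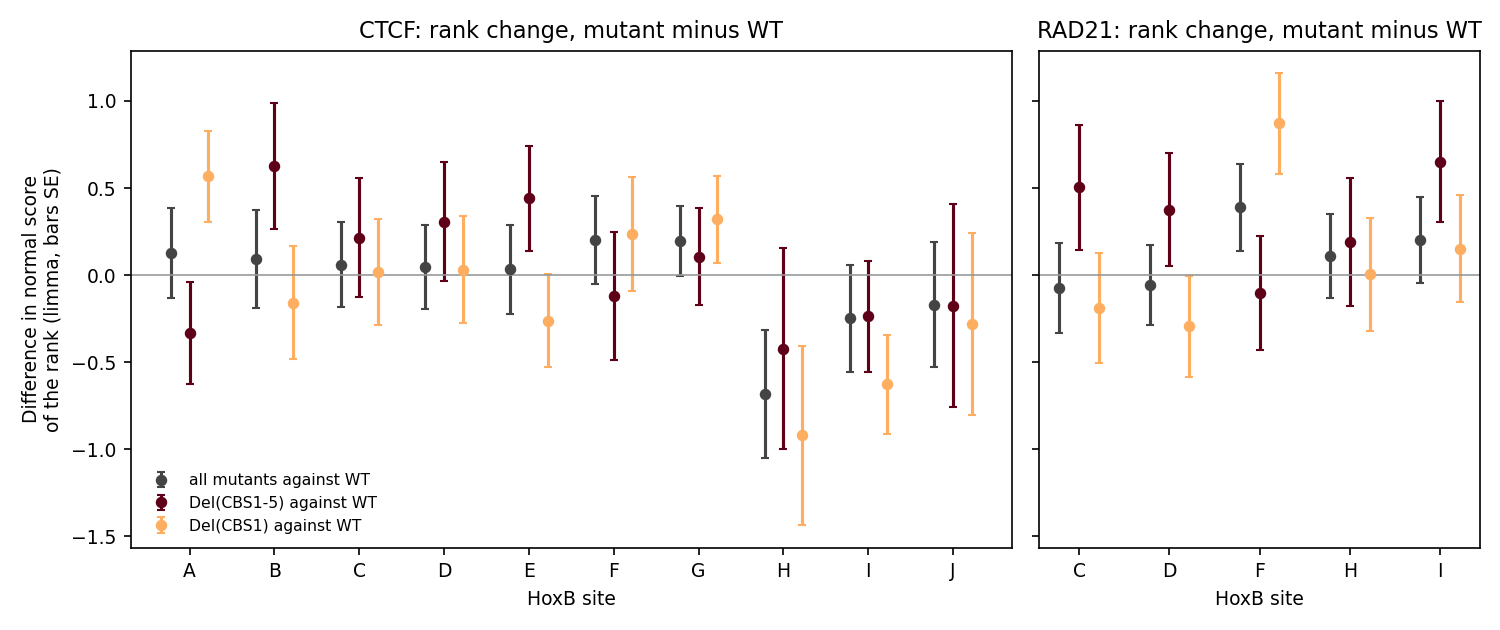
Change in normal score of the rank, mutant minus WT (y axis, limma estimate with SE bars), at the HoxB sites found in every library (x axis), CTCF left and RAD21 right. Grey is all mutants against WT, dark red Del(CBS1-5) and orange Del(CBS1) against WT. CTCF at H (-0.68) is the largest change over all mutants and RAD21 at F (0.87) the largest positive change in Del(CBS1), and no point was called after adjustment over all sites.

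On the number of mutated sites, 3 of 10 CTCF slopes at HoxB were positive, against 15920 of 32093 over all sites, and 5 of 5 RAD21 slopes were, against 6429 of 12987. With the replicate block 4 of 10 CTCF and 3 of 5 RAD21 slopes were positive. Without the 5 CTCF libraries of low median fold 5 of 10 CTCF slopes were positive. The slope at B was then 0.13 ± 0.05 (SE; unadjusted limma p under 0.05, not called after adjustment). The RAD21 slopes without the block were 0.01 to 0.07 normal-score units per mutated site, and limma adjusted p-values were 0.9575 and higher. Del(CBS2) entered with 1 mutated site. RAD21 changes over all mutants ran from -0.07 to 0.39, with the largest at F (0.39 ± 0.25, limma adjusted p = 0.9993). Its percentile there was 32.1, 67.6 and 86.1 (lowest, median and highest) in mutants, and 7 of 12 mutant libraries lay above all 4 WT libraries. Unreplicated Del(CBS2) had the highest CTCF percentile of any library at I (90.9). Its RAD21 percentile at D (48.9) was the lowest, but close to the lowest values of Del(CBS1) (49.2) and WT (49.5). With 1 library the spread behind the Del(CBS2) values is unknown.

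When sites found in 7 or more CTCF or 8 or more RAD21 libraries were fitted, with no peak given the lowest rank, limma called 0 of 20 HoxB CTCF sites in all mutants (0.00329% of 60758 called), Del(CBS1-5) (0.0625%), Del(CBS1) (0.0148%) and on the number of mutated sites (0%). It called 0 of 8 RAD21 sites in the same comparisons (0%, 0.0501%, 0.0134% and 0% of 29927). At an unadjusted p under 0.05 it gave 1 CTCF and 1 RAD21 site, both in Del(CBS1). The sites around Hoxb2 and Hoxb3os changed by 0.43 ± 0.43 at 96344872, 0.55 ± 0.44 at 96353288 and 0.39 ± 0.50 at 96354007 in all mutants against WT (SE; limma adjusted p = 0.9999 in each). Without the 5 libraries of low median fold the changes took the other sign, -0.20 ± 0.26, -0.02 ± 0.35 and -0.34 ± 0.28 (limma adjusted p = 1 in each).

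The pattern of site D across libraries was set beside that of all other CTCF sites, by the root-mean-square difference of normal scores over the 14 libraries. The nearest were at chr7:25720161, 1000 bp from Hnrnpul1 (0.229), at chr7:67951058, 1199 bp from Igf1r (0.232), and at chr6:135417652, 34479 bp from Emp1 (0.243). The median over 32083 sites was 1.34. The measure compares levels and their variation together, and the libraries behind it are shared by all sites.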

How the data were processed

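Peak lists of 30 libraries on mm10 were used as the authors deposited them, 1 per library. The submitters' processing notes name MACS2 2.1.1.20160309 and Bowtie2 2.3.5, and also cutadapt 1.16, Picard 2.19.0, bedtools 2.27.1 and SAMtools 1.9. Their options are not given in the sources used here. The deposited columns hold a display score, a fold enrichment (a ratio of the summit to the library's local background), a -log10 p and a -log10 q per peak, and a summit offset. Every deposited -log10 q was 1.3 or more. Read depth cannot be had from these columns.

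Embryos were dissociated individually per the labels, so libraries of a group were taken as separate embryos. Whether a CTCF and a RAD21 library share an embryo is not given in the sources used here. Sites, percentiles and RAD21 occupancy (a RAD21 peak within 150 bp of the CTCF median summit) were computed in Python 3.11.15 with pandas 2.3.3, numpy 2.4.6 and scipy 1.17.1, and drawn with matplotlib 3.10.9. Normal scores of ranks were compared in R 4.3.3 by limma 3.58.1 (trend and robust empirical Bayes, adjusted p threshold 0.05), with 1 coefficient per genotype, mutants as 1 group, or a slope on the number of mutated sites. For a genotype with 1 library the spread of the rest was assumed. limma was tested on simulated data only for all mutants against WT, with planted shifts larger than any such change at HoxB. That test does not show whether changes of the size seen here would be called. No pair of libraries held identical values. Genes, promoters and miRNAs came from RefSeq on GRCm38.p6. Motifs and their orientation at CTCF peaks were not analysed here.

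The members, the windows and the tests were chosen with earlier results of these data known. Every CTCF or RAD21 site found in at least 7 CTCF or 8 RAD21 libraries is named, with the other sites given as counts. Alternatives changed how a site is detected, the peak threshold, list length, the ranked value, the fit, the RAD21 distance and the libraries included.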

Additional observations from a re-analysis of the deposited data

Results flagged for a closer look

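Among 14 sets of 4 WT RAD21 values at HoxB checked for a single library far from the rest, 1 stood out, and chance gives about 1 in 20. At site C (96235052), in the stretch between Hoxb13 and Hoxb9, the RAD21 fold enrichment of WT replicate 3 was 8.368, against 10.44, 10.23 and 10.25 in the other WT libraries. The gap was 0.899 of the range. The 12 mutant libraries ran from 6.061 to 14.24 and enclosed it. By percentile, WT replicates 1 to 4 stood at 68.76, 62.57, 43.35 and 37.21. Replicate 3 was not the lowest of these, and none was flagged.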

How the results depend on the processing

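The number of CTCF sites found in every library stayed between 8 and 15 over the alternatives, and 10 as reported. RAD21 sites found in every library numbered 3 when only peaks with a -log10 q of at least 10 were used, against 5 as reported, and 3 to 6 over all alternatives. CTCF sites with RAD21 in every WT library stayed at 5 or 6. limma called 0 HoxB sites in each of the 4 comparisons and both antibodies under every alternative run. Whether same-numbered Del(CBS1) and WT libraries pair was not settled. Their deviations correlated at 0.263, 0.123 and 0.03 for CTCF and 0.275, 0.09 and 0.061 for RAD21. Those of different-numbered libraries correlated at -0.249 to 0.148 for CTCF and -0.174 to 0.128 for RAD21. Del(CBS1) replicate 3 correlated better with WT replicate 2 (0.148 and 0.107) than with WT replicate 3. With the replicate block limma called 0 HoxB sites, with an unadjusted p under 0.05 at H over all mutants (-0.86), at B in Del(CBS1-5) (0.83) and on the number of mutated sites (0.14), and at A and I in Del(CBS1) in CTCF, and at F in Del(CBS1) in RAD21. It called genome-wide 8 CTCF sites in Del(CBS1-5), against 5 without it, 2 on the number of mutated sites, against 1, and 0 RAD21 sites in Del(CBS1-5), against 6. Without the 5 CTCF libraries of low median fold it called 18 CTCF sites genome-wide in Del(CBS1), against 0, and 9 in Del(CBS1-5), against 5. Among sites in 7 or more libraries it then called 17 over all mutants, against 2, 173 in Del(CBS1-5), against 38, and 155 in Del(CBS1), against 9, with 0 at HoxB. Apart from single omissions, signs were checked by the rank of -log10 p, with a -log10 q of at least 10, and without those 5 libraries. Changes over all mutants, none of them called, took the other sign in 8 of these checks. By the rank of -log10 p they were -0.0081 at B, -0.0225 at C, -0.1596 at D, -0.1247 at E and 0.2046 at J. Without the 5 CTCF libraries of low median fold they were -0.1184 at A, 0.0234 at I and 0.2325 at J. With the replicate block, which was not among these checks, CTCF at E also took the other sign, at -0.0257 against 0.0329. Leaving out each replicated library in turn turned 13 such changes over all mutants and kept the sign of 182. The single libraries of Del(CBS1-2) in CTCF and of Del(CBS2) were not left out. The CTCF ranges were -0.0752 to 0.2723 at B, -0.0158 to 0.1196 at C, -0.1583 to 0.1693 at D, -0.0513 to 0.0894 at E, -0.0639 to 0.5253 at F, -0.4542 to 0.0649 at I and -0.5714 to 0.0717 at J. The RAD21 ranges were -0.2086 to 0.0631 at C, -0.218 to 0.1049 at D and -0.019 to 0.2042 at H. At H the CTCF change stayed negative, at -0.8749 to -0.5295. The causes were not tested. Under another rank or peak threshold 20 WT percentiles moved by more than the spread between libraries and 30 did not. Depth was unknown, and weak sites near the calling threshold are the least certain.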
